A study of Mus musculus with 8 samples.

Results

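Draxin, Disc1 and Itpr3 are genes in which mutations have been published for BTBR, a mouse studied for its low sociability and, in its most used subline, a missing corpus callosum. These are 3 of the 37074 gene names on the array. Every probe with one of these names in the scanner files was taken, which gave 5 of 56605 probes: 1 for Draxin, 3 for Disc1 and 1 for Itpr3. In the adult forebrain Itpr3 RNA was plainly present and did not differ detectably between the strains. Disc1 RNA, read across an exon junction, was 1.24-fold higher in BTBR/R mice, a difference that some settings and single mice took below the test threshold. Draxin RNA was not detected in any of the 8 mice.

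The RNA came from the whole cerebral cortex together with the striatum of male mice, with 4 mice in each strain and 1 array a mouse. The controls were C57BL/6J (B6), the common inbred laboratory strain. The other group was BTBRTF/ArtRbrc (BTBR/R), the BTBR subline kept at the RIKEN BioResource Research Center. The study describes the corpus callosum of BTBR/R mice as normal in appearance, though not yet quantified. It reports a mild deficit in social novelty recognition in them. The mice were 4 months old, with the exception of a single 6-month-old animal, BTBR/R replicate 1, and the labels name no treatment. According to the study's introduction, BTBR/R carries the T (brachyury), Itpr3tf (tufted) and at (black and tan) mutations. The labels give no genotype at Draxin or Disc1, and an expression array measures the RNA, not these mutations. The strains differ across the whole genome, so a difference between them cannot be assigned to one locus.

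Draxin is a secreted protein that steers growing axons. It binds netrin-1 and the netrin receptor DCC, and mice without it fail to form forebrain commissures such as the corpus callosum. DISC1 is a scaffold protein, named for a translocation that disrupts it in a family with psychiatric illness, that holds NDE1, NDEL1 and LIS1 at the centrosome and binds PDE4 enzymes and GSK3B. Itpr3 encodes the type 3 inositol 1,4,5-trisphosphate (IP3) receptor, a channel through which calcium leaves the endoplasmic reticulum. Its best known roles are in taste cells and in secretory epithelia, and the tufted allele also changes hair growth.

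The sequences of 4 probes are shown because each reads a different stretch of RNA, and the Disc1 probes did not behave alike. They are 60 bases long and are written 5′ to 3′ as the array file gives them, by their last 30 bases except for the Disc1 junction probe, which is given whole. Capitals mark the hexamer AATAAA, the usual signal for polyadenylation, which occurs in the Itpr3 probe and in 9.77% of all probes, searched on the probe strand alone.
Draxin A_51_P302488: atgaataggagaaacagtaacgttgctctg
Disc1 A_55_P2042849: ggggcaacaggggaagagggaagaaaatgc
Disc1 A_51_P358872: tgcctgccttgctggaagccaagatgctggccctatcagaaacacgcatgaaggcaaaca
Itpr3 A_51_P104897: ttaattgccttaAATAAAttaatagactcc

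In the mouse build mm9 that the array annotation uses, the Draxin probe lies at chr4:147475543-147475602 on the minus strand and is assigned to the transcript NM_027426. The Itpr3 probe lies at chr17:27259102-27259161 on the plus strand and is assigned to NM_080553. The Disc1 probe A_51_P358872, assigned to NM_174853, runs over chr8:127678972-127742017 on the plus strand. Its 60 bases are spread over 63046 bases of genome, so it reads RNA from which an intron has been spliced out. The Disc1 probe A_55_P2042849 was designed on ENSMUST00000122389 and lies upstream of it, at chr8:127614665-127614724. No annotation of that build was used here, so the exon or untranslated region under each probe is not given, and neither is its distance from a mutation.

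Signals are the scanner software's processed signal, in arbitrary units after background subtraction. For tests they were put on the log2 scale relative to the 75th percentile of the array, and this is called the scaled signal below. Detection was taken from the software's own flag for a spot well above background. The limit of detection differed between the strains. In B6 mice 64.5% to 66.8% of probes were detected, in BTBR/R mice 53.5% to 57.2%. The dimmest detected probe had a processed signal of 14.5 to 17.8 in B6 and of 36.1 to 47.1 in BTBR/R mice. All arrays shared 1 slide and 1 scan, but the B6 arrays filled one column of the slide and the BTBR/R arrays the other, so the column of the slide and the strain cannot be told apart. All 6 cortical neuron markers and all 6 striatal projection neuron markers were detected on every array. Of the other cells checked, red blood cell markers gave a lower summed scaled signal in BTBR/R (6.73 to 7.02) than in B6 mice (7.21 to 8.91). At an adjusted p under 0.05 by limma, 5 of 7 probes passed as lower and 0 as higher. Of all probes detected on all 8 arrays, 26.9% passed in this way, 13% as higher and 13.9% as lower. The share was 71.4% for red blood cell, 33.3% for myelin and 62.5% for microglial marker probes. Myelin markers summed to 7.42 to 7.58 against 7.56 to 7.90, which overlap, with 3 of the 12 probes detected on all arrays lower and 1 higher. Microglial markers summed to 5.57 to 5.70 against 5.78 to 5.83 but went in no single direction, with 3 of 8 probes lower and 2 higher, among them Cx3cr1 probes at -0.71 and 1.71. Choroid plexus markers varied widely within both strains. These shifts accompany every strain difference given here, and their part in them was not tested. In bulk tissue, fewer cells of a type and less RNA per cell cannot be told apart.

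Itpr3 gave a steady signal in all 8 mice. The processed signals of A_51_P104897 were 967, 928, 972 and 1010 in B6 replicates 1 to 4 and 906, 873, 1045 and 1026 in BTBR/R replicates 1 to 4. The BTBR/R values reached both above and below the B6 values, so the groups overlap. The scaled signal was 0.78 ± 0.04 (SD, n = 4) in B6 and 0.76 ± 0.09 (SD, n = 4) in BTBR/R mice. The difference, BTBR/R minus B6, was -0.02 (SE 0.06) on the log2 scale, with an adjusted p of 0.795 by limma over all probes. The 95% interval of the difference reached from -0.15 to 0.11, which is 0.899 to 1.08 times the B6 level. In B6 mice the probe was brighter than 61.7% of the 28547 probes detected on all 8 arrays, and 10.3% of these probes differed less between the strains. The sign of the difference is not settled. It was 0.09 (adjusted p = 0.395) when arrays were scaled to the spike-in controls, a scaling that raised the difference of all probes by a median of 0.11, and 0.007 without BTBR/R replicate 1.

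An antisense transcript of the same locus, Itpr3os, has a probe of its own (A_66_P113862) that was not detected on any array. The nearest probe of another gene lies 0.455 kb past the Itpr3 probe and reads Uqcc2, an assembly factor of respiratory complex III. It was detected on all arrays and differed by 0.17 (SE 0.04, adjusted p = 0.0128). Uqcc2 was chosen for its position after its value had been seen.

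Disc1 was detected on all 8 arrays by the junction probe A_51_P358872 alone. Its processed signals were 280, 326, 271 and 305 in B6 replicates 1 to 4 and 340, 390, 336 and 408 in BTBR/R replicates 1 to 4. All BTBR/R values were above all B6 values, although the gap between the lowest BTBR/R and the highest B6 mouse was narrow. Among the probes detected on all 8 arrays, 32.6% had groups that did not overlap, and in 16.3% BTBR/R was higher. The scaled signal was -0.94 ± 0.12 (SD, n = 4) in B6 and -0.62 ± 0.16 (SD, n = 4) in BTBR/R mice. The difference was 0.31 (SE 0.10), or 1.24-fold with a 95% interval of 1.06 to 1.45, and passed the test with an adjusted p of 0.0362. It did not reach the 2-fold change that the study's methods also required and that 2.2% of the probes detected on all 8 arrays had together with the adjusted p (1.04% higher and 1.16% lower in BTBR/R mice).

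An adjusted p under 0.05 was common in this comparison. It was reached by 39.3% of all probes (27.7% higher and 11.6% lower in BTBR/R) and by 26.9% of those detected on all 8 arrays, 13% being higher and 13.9% lower. The Disc1 difference is larger than that of 81.7% of the probes detected on all 8 arrays, and its spread between mice of a strain (SD 0.14) was larger than that of 75.6% of them. In B6 mice the junction probe was brighter than 35.8% of these probes. The call was lost with normexp background correction (0.22, adjusted p = 0.0765) and with scaling to the array median (0.28, adjusted p = 0.0638). It was also lost when B6 replicate 1, 3 or 4 or BTBR/R replicate 2 or 4 was left out, where the difference ranged from 0.25 to 0.32. Without the 6-month-old mouse, BTBR/R replicate 1, the difference was 0.35 (adjusted p = 0.0382). The difference was above 0 under every alternative run.

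**Figure D1:**
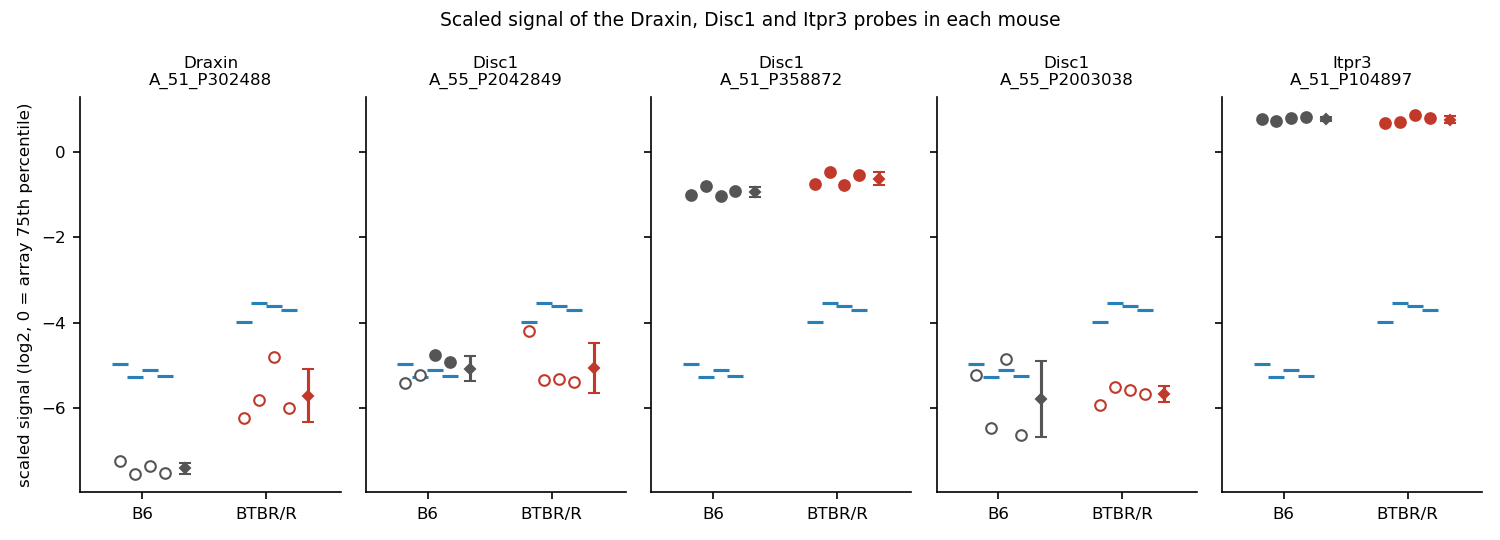
Scaled signal (log2, 0 is the 75th percentile of the array) of each of the 5 probes, 1 panel a probe, in 4 B6 (grey) and 4 BTBR/R (red) mice; filled circles were detected, open circles were not, blue dashes mark the lowest detected signal of that array, and diamonds with bars are the mean ± SD. The Itpr3 and Disc1 junction probes lie above the dashes on all 8 arrays, the Draxin probe lies under them on all 8, and the dashes sit higher on the BTBR/R arrays.

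The remaining Disc1 probes were dim. A_55_P2042849 was detected on 2 of 4 B6 arrays and on no BTBR/R array. Its processed signals were 13.1, 15.0, 20.4 and 18.7 in B6 replicates 1 to 4 and 31.1, 13.2, 14.3 and 14.1 in BTBR/R replicates 1 to 4. BTBR/R replicate 1, the older mouse, was above all other arrays, and the other 3 BTBR/R values lay inside the B6 range. The fitted difference in scaled signal was 0.03 (SE 0.30, adjusted p = 0.952). It was -0.26 without BTBR/R replicate 1, and its sign also turned without B6 replicate 1 or B6 replicate 2 and with median scaling, so no direction is given. The mean signal of the spot, before background subtraction, was nevertheless above the 95th percentile of the negative control spots on all 8 arrays.

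A_55_P2003038 was not detected on any array. Its spot mean signals were 71.3, 61.0, 70.05 and 58.4 in B6 replicates 1 to 4, above the 95th percentile of the negative control spots on 4 of 4 arrays. In BTBR/R replicates 1 to 4 they were 59.4, 55.5, 52.1 and 59.3, above that percentile on 1 of 4 arrays. The raw values thus overlapped, with most BTBR/R spots inside the range of the negative controls. On all 4 BTBR/R arrays the software had replaced the background-subtracted signal by a surrogate, a floor value it sets from the noise of the array. The fitted difference in scaled signal between these undetected spots was 0.12 (SE 0.42, adjusted p = 0.841), and with normexp correction of the raw signals it was -0.25 (SE 0.07, adjusted p = 0.0419). The direction therefore depended on how background was treated, and no fold change is given. No pair of Disc1 probes was detected on all arrays, so whether the strain difference depends on the stretch of RNA could not be tested.

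Draxin gave no signal that the software accepted. The processed signals of A_51_P302488 were 3.71, 2.99, 3.36 and 3.12 in B6 replicates 1 to 4 and 7.54, 9.53, 20.5 and 9.25 in BTBR/R replicates 1 to 4. All BTBR/R values were above all B6 values, but all 8 lay under the lowest detected signal of their array. The surrogate had been used on 4 of 4 B6 arrays and 3 of 4 BTBR/R arrays. The spot mean signals were 47.9, 44.4, 49.5 and 51.2 in B6 and 59.8, 55.9, 91.2 and 52.7 in BTBR/R replicates 1 to 4. Of these, 7 lay between the 5th and the 95th percentile of the negative control spots of the same array, and BTBR/R replicate 3 lay above.

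The scaled signal was -7.42 ± 0.14 (SD, n = 4) in B6 and -5.71 ± 0.63 (SD, n = 4) in BTBR/R mice. The fitted difference between these undetected spots was 1.71 (SE 0.29, adjusted p = 0.00272), which passes both thresholds, as did 22.4% of all probes (20.2% higher and 2.27% lower). Of the 14874 probes that no array detected, 67.7% passed both thresholds as higher in BTBR/R mice and 0% as lower. By limma's adjusted p alone 73.1% of these undetected probes passed, 72.6% as higher and 0.498% as lower. With normexp correction the Draxin value was 0.26 (adjusted p = 0.208), and after quantile normalization it was 0.51 (adjusted p = 0.467). Draxin RNA was not detectable at the limit of these arrays in either strain, so no fold change is given for it. Levels before birth, when the callosum forms, are outside these data.

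**Figure D2:**
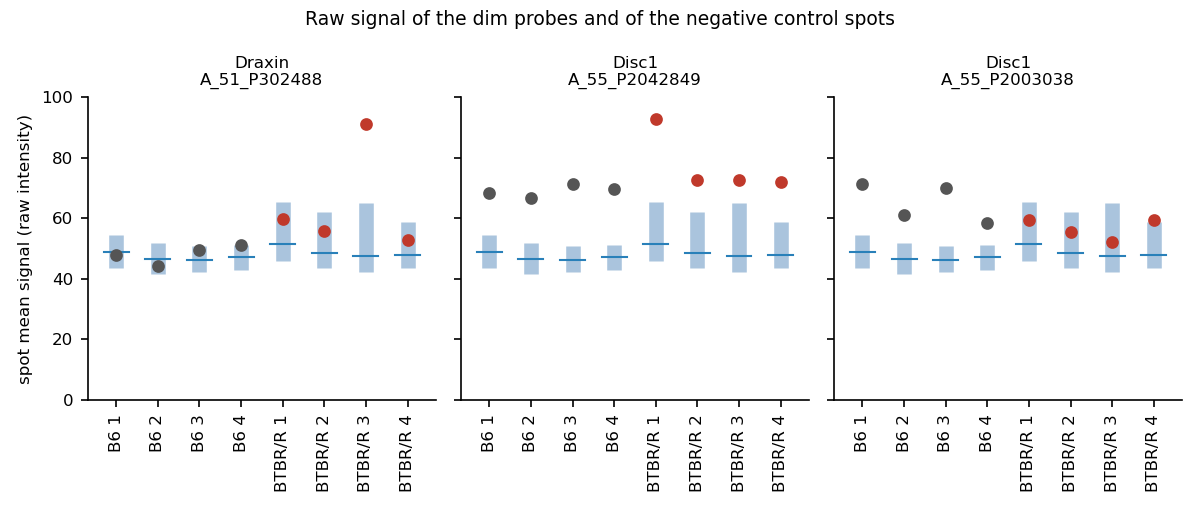
Spot mean signal (raw intensity before background subtraction) of the 3 dim probes on each of the 8 arrays (grey B6, red BTBR/R), with the 5th to 95th percentile range (light blue bars) and the median (blue line) of the negative control spots of the array. The Draxin spots lie within the bars on 7 of 8 arrays, while Disc1 A_55_P2042849 lies above them on all 8.

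**Figure D3:**
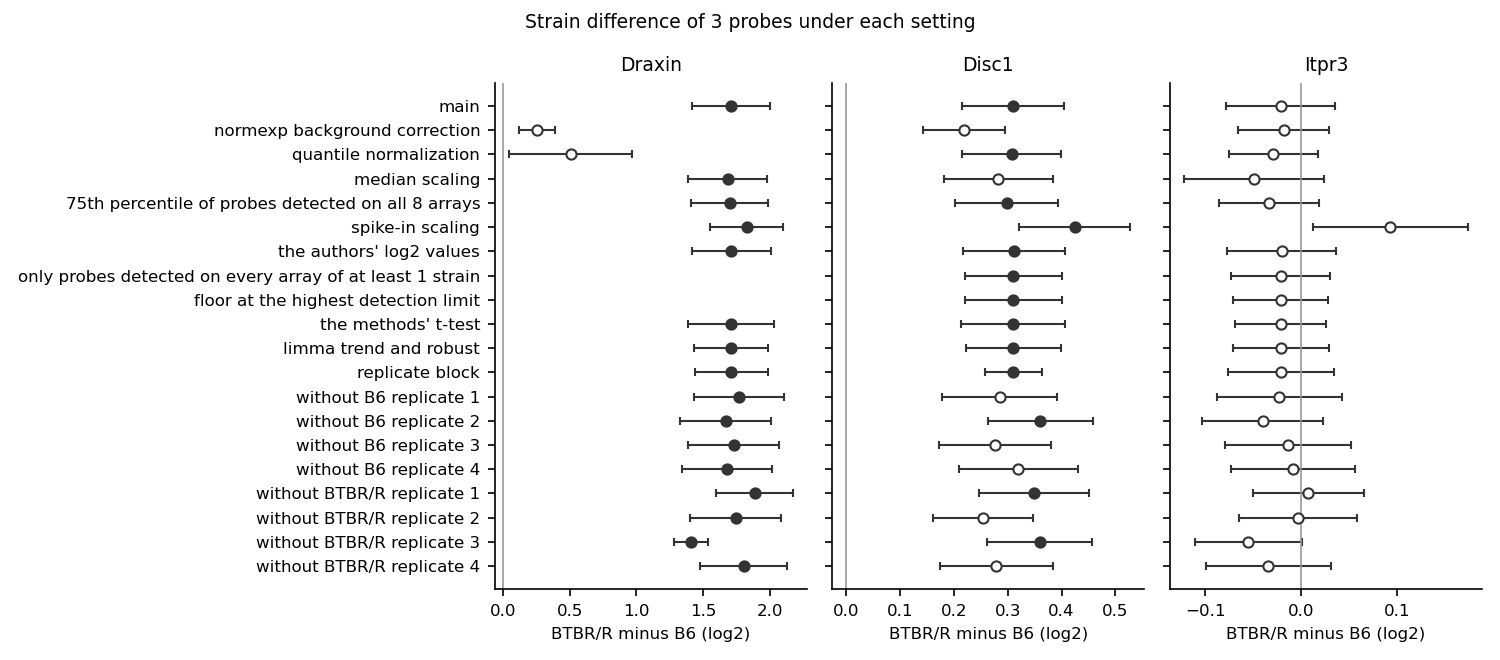
Difference in scaled signal, BTBR/R minus B6 (log2, with its standard error), of the Draxin probe, the Disc1 junction probe and the Itpr3 probe under the main setting and each alternative; filled circles passed an adjusted p of 0.05, and each panel has its own scale. Disc1 stays between 0.22 and 0.42 with the call lost in 7 of 19 alternatives, Itpr3 lies around 0, and the Draxin value falls from 1.71 to 0.26 with normexp correction and has no value where undetected probes are left out.

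The genes that work with each of the 3 were then read in the same fit. All 11 receptors and ligands of the netrin and Draxin pathway were on the array, with 23 probes, 18 of them detected on all 8 arrays. Of these 18, 5 were higher and 4 lower in BTBR/R mice at an adjusted p under 0.05, 9 did not pass and none reached 2-fold. Their median difference was 0.04, against 0.0015 over all probes detected on all 8 arrays, and turned to -0.02 with normexp correction and to 0.15 with scaling to the spike-in controls, which raised every probe's difference by 0.11. The same scaling gave medians of 0.15 for the callosal genes and 0.16 for the DISC1 partners that follow. By gene, 2 of 9 had probes that passed as higher only, 0 as lower only, 3 as both and 4 had none. The share that passed, 50%, stands beside the 26.9% of all such probes.

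Neo1, which encodes the DCC relative neogenin, had the clearest single value of the group. One probe (A_51_P476728) rose by 0.65 (SE 0.06, adjusted p = 7.4e-05), or 1.57-fold, while its other probe, also detected on all arrays, differed by 0.05 (adjusted p = 0.669). The probes of Dcc, the receptor that binds both netrin-1 and Draxin, disagreed. On A_52_P569396 Dcc was 0.76 higher in BTBR/R mice (SE 0.11, adjusted p = 0.00103). On A_52_P405708 it fell by 0.31 (adjusted p = 0.0161), a call lost with scaling to the spike-in controls, with normexp correction (-0.13, adjusted p = 0.0974) and with the replicate number as a block (adjusted p = 0.0573). A_52_P387334 differed by 0.02 (adjusted p = 0.869). The Dcc probes that only B6 arrays detected throughout were at -0.17 (adjusted p = 0.413) and -0.46 (adjusted p = 0.0484, lost in 7 of 8 fits without 1 mouse and with normexp correction). A_55_P1961761, which carries the name Dcc, differed by -0.26 (adjusted p = 0.0164, a call lost with spike-in scaling), but the array annotation places it on chromosome 7 and all other Dcc probes on chromosome 18, so it is uncertain whether it reads Dcc. Without it, in a count added after seeing the data, the pathway's counts were 5 higher, 3 lower and 9 not passed of 17 probes (47.1% passed). The level of Dcc RNA thus has no single direction here.

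Among the UNC5 receptors, through which netrin repels axons, Unc5a was higher by 0.25 (SE 0.05, adjusted p = 0.00777). Unc5c probes also split, with A_66_P129566 higher by 0.34 (adjusted p = 0.00337), A_52_P380301 lower (-0.24, adjusted p = 0.0459, lost in 6 of 8 fits without 1 mouse and with normexp correction) and the remaining probe at -0.20 (adjusted p = 0.252). Both Unc5b probes were at -0.13 without passing the test. Unc5d was detected in B6 mice alone, on 4 of 4 arrays, and its fitted difference was -0.17 (adjusted p = 0.497). Ntn1, netrin-1 itself, differed by 0.14 (SE 0.09, adjusted p = 0.284), and Lrp6, a Wnt co-receptor that Draxin can bind, by 0.18 and 0.06 on its probes (adjusted p = 0.658 and 0.458).

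The wider list of genes for callosal projection neurons and midline guidance held 27 genes and 76 probes. Of its 55 probes detected on all 8 arrays, 10 were higher, 4 lower and 41 did not pass, with a median difference of 0.04 and none at 2-fold. By gene, 8 of 26 passed as higher, 3 as lower and 15 had no probe that passed. The share of probes that passed, 25.5%, is near the 26.9% of all such probes. Nrp1, a semaphorin receptor, had a probe that passed both thresholds among those detected throughout a strain. That probe, A_52_P174942, was detected on 4 of 4 B6 arrays and no BTBR/R array, with a scaled signal of -3.95 ± 0.11 in B6 and -5.22 ± 0.69 in BTBR/R mice (SD, n = 4; adjusted p = 0.0168). The B6 mean lies under the dimmest detected signal of all BTBR/R arrays but replicate 1, and the bound on the fold comes to under 1, so no fold is given. With normexp correction the difference was -0.16 (adjusted p = 0.415), and of the Nrp1 probes detected in all mice A_55_P2738087 was higher by 0.59 (adjusted p = 0.0374, lost in 5 of 8 fits without 1 mouse) while the others did not pass and lay between -0.32 and 0.02.

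For Disc1, all 21 chosen binding partners and pathway genes were present, with 73 probes. Of the 60 probes detected on all 8 arrays, 10 were higher, 8 lower and 42 did not pass, with a median difference of 0.05 and none at 2-fold. By gene, 3 of 21 passed as higher, 3 as lower, 2 had probes that passed in both directions and 13 had none. The share of probes that passed was 30%, again beside 26.9%.

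Nde1, a dynein regulator that DISC1 holds at the centrosome, was lower in BTBR/R mice on both probes detected on all arrays. A_55_P2041843 fell by 0.47 (SE 0.06, adjusted p = 0.000632), or 1.38-fold, and A_55_P2165334 fell by 0.18 (SE 0.05, adjusted p = 0.0175). The second call was lost with spike-in scaling and with the replicate block (adjusted p = 0.0773), the first was not. Its close relative Ndel1 differed by 0.04 and -0.14 on its probes, and Pafah1b1, which encodes LIS1, by 0.08 and 0.05, none past the test. The kinesin adaptor Fez1 lay between -0.12 and 0.004 and the kinase Gsk3b between -0.07 and 0.31 over their probes, also without a pass.

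Pde4b, a cyclic AMP phosphodiesterase bound by DISC1, had a probe that passed both thresholds. A_55_P2721842 was detected on 4 of 4 B6 arrays and on no BTBR/R array, with a scaled signal of -2.84 ± 0.21 in B6 and -5.40 ± 0.52 in BTBR/R mice (SD, n = 4; adjusted p = 0.000119). Set against the dimmest signal that BTBR/R arrays detected, it was lower there by at least 1.83-fold. For this bound, and those given later, the mean scaled signal of the strain with more signal was compared with a raised mean of the other strain. In that mean each array gave its own value or its dimmest detected signal, whichever was higher. The adjusted p beside a bound is that of the fitted difference and does not test the bound. With normexp correction of the raw signals the difference was -0.68 (adjusted p = 0.000458), which is short of 2-fold and smaller than that bound, so the size of the change depended on the background treatment. The 3 Pde4b probes detected on all 8 arrays differed by 0.27, 0.06 and 0.01, none past the test, so the lower signal was that of a single probe.

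For Itpr3, the family and the genes of IP3 signalling and calcium stores held 28 genes and 76 probes, 56 of them detected on all 8 arrays. Of these, 4 were higher, 7 lower and 45 did not pass, with none at 2-fold. Their median difference was -0.03 and turned to 0.08 with spike-in scaling. By gene, 4 of 27 passed as higher, 6 as lower and 17 had no probe that passed, and the share of probes that passed was 19.6% beside 26.9%. Itpr1, the main IP3 receptor of neurons, differed by -0.02, 0.04 and -0.13 on probes that did not pass. On A_55_P2932328 it fell by 0.35 (SE 0.08, adjusted p = 0.0124), a call lost with spike-in scaling. Itpr2 differed by -0.07 (SE 0.07, adjusted p = 0.459) on the probe detected on all arrays. Of its probes with incomplete detection in BTBR/R mice, A_55_P2720874 was at -0.35 (adjusted p = 0.00913) and with normexp correction at -0.08 (adjusted p = 0.238). A_55_P2735430 was at -0.30 (adjusted p = 0.0754) and A_52_P494207 at -0.50 (adjusted p = 0.146). A further Itpr2 probe, A_51_P468269, detected throughout neither strain, went the other way at 1.47 (adjusted p = 2.76e-05). Its call was lost with quantile normalization, and with normexp correction it was at -0.02 (adjusted p = 0.702). Ryr3, a calcium release channel of the same store, had a probe detected in B6 mice alone that passed both thresholds (A_51_P519354, -3.76 ± 0.64 in B6 against -4.82 ± 0.24 in BTBR/R, SD, n = 4, adjusted p = 0.0321). Its B6 mean lies under the dimmest detected signal of all BTBR/R arrays but replicate 1, so no fold is given, 6 of 8 fits without 1 mouse lost the call, as did normexp correction (-0.37, adjusted p = 0.0536). Of its other probes A_52_P328350 fell by 0.20 (adjusted p = 0.0149, a call lost with spike-in scaling and with the replicate block) and A_52_P261858 differed by -0.19 (adjusted p = 0.0674).

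**Figure D4:**
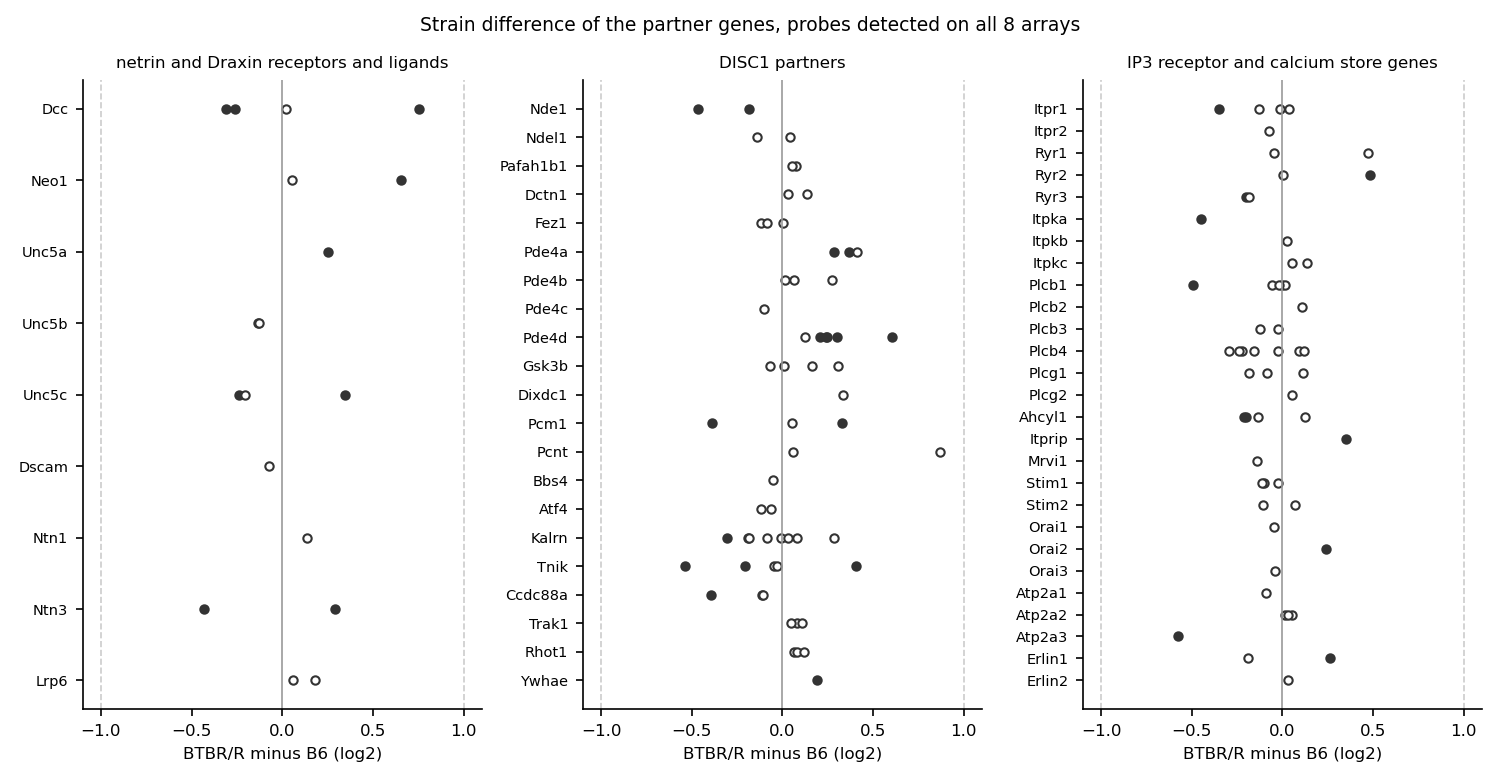
Difference in scaled signal, BTBR/R minus B6 (log2), of every probe detected on all 8 arrays for the netrin and Draxin pathway, DISC1 partners and IP3 receptor and calcium store genes, 1 row a gene; filled circles passed an adjusted p of 0.05 and dashed lines mark 2-fold. No point reaches 2-fold, and the Dcc row, which includes the probe annotated to chromosome 7, holds filled circles on both sides of 0.

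The other mutations named for BTBR/R, T and at, lie in genes that these arrays hardly read in the forebrain. Both probes of T, a transcription factor of the embryonic mesoderm, were undetected on all 8 arrays. Of the 8 probes of a, the agouti coat colour gene, none was detected on all 8. A_55_P2745588 was detected on 4 of 4 B6 arrays and no BTBR/R array, with a difference of -0.10 (adjusted p = 0.417), and A_55_P2170019 on 2 of 4 BTBR/R arrays and no B6 array (0.97, adjusted p = 0.275).

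Because inbred strains inherit long blocks of sequence, probes of other genes within 1 Mb of each gene were also read. Among the 35539 probes detected throughout at least 1 strain, 4.41% passed both thresholds, 1.03% higher and 3.38% lower in BTBR/R mice. Around Draxin 12 of 70 such probes passed, 2 higher and 10 lower, around Disc1 4 of 43, 1 higher and 3 lower, and around Itpr3 2 of 79, both higher. Many of the lower ones entered through detection in B6 mice alone, where the limit was lower. Among probes detected on all 8 arrays, of which 2.2% passed, 2 were higher and 2 lower of 53 around Draxin, 0 higher and 1 lower of 34 around Disc1, and 2 higher and 0 lower of 69 around Itpr3. Whether these counts stand apart from other regions was not tested, since neighbouring probes share genes and haplotype.

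Agtrap, an angiotensin receptor adaptor, differed by 0.13 and -0.11 on its probes detected throughout, 21.1 and 23.8 kb away, without passing the test. Mad2l2, a mitotic checkpoint and repair protein with probes 38.5 to 44.1 kb away, fell by 0.49 (adjusted p = 0.000221) and by 0.39 (adjusted p = 0.000433) on 2 probes and differed by 0.10 (adjusted p = 0.166) on another, all detected in all mice, while a probe detected in B6 mice alone was at -0.44 (adjusted p = 0.0121; with normexp correction -0.09, adjusted p = 0.232). Agtrap and Mad2l2, and below Tsnax, Egln1 and Sipa1l2, were chosen for their position after their values had been seen. Farther away, Masp2, a protease of the lectin complement pathway, was higher in BTBR/R mice on both probes that were detected, which they were in all mice, by 2.41 (SE 0.06, adjusted p = 1.15e-06) and 2.21 (SE 0.09, adjusted p = 8.1e-06), or 5.31-fold and 4.62-fold. The zinc finger gene Zfp933 fell by 2.74 (SE 0.08, adjusted p = 2.39e-06), or 6.70-fold, on a probe detected in all mice. Gm13154 fell by 1.40 (SE 0.09, adjusted p = 2.76e-05), or 2.64-fold, on A_55_P2803238, while A_55_P2858358, detected on 4 of 4 B6 and 3 of 4 BTBR/R arrays, was at 0.96 in the other direction (adjusted p = 0.00233). Gm13152 was detected in B6 mice alone and was lower in BTBR/R by at least 2.48-fold (adjusted p of the fitted difference 1.96e-06). The same held for 2610036A22Rik, by at least 1.58-fold (adjusted p of the fitted difference 0.00873). A probe of Plod1, a lysyl hydroxylase, was also detected in B6 mice alone (adjusted p = 2.76e-05), at a level under the BTBR/R detection limit, and its probe detected in all mice differed by -0.08 (adjusted p = 0.621). Several of these genes belong to a cluster of similar zinc finger genes, whose copies a probe of this length may not separate.

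Tsnax, Egln1 and Sipa1l2 lie near Disc1, and none of their probes detected in all mice passed the test. The 4 probes of Tsnax, whose gene lies directly upstream and is spliced to DISC1 in some human transcripts, differed by -0.07 to 0.20. Egln1, an oxygen-sensing prolyl hydroxylase, differed by -0.03 and Sipa1l2 by 0.08 and 0.34. The neighbours that passed both thresholds lay farther off. A probe of Ttc13 (A_55_P2718750) was detected in 3 of 4 B6 and 4 of 4 BTBR/R mice. Its fitted difference was 3.81 (SE 0.12, adjusted p = 2.84e-06), and it was higher in BTBR/R by at least 13.99-fold. Another Ttc13 probe, A_55_P1996573, detected in all mice, differed by 0.15 (adjusted p = 0.0466). Arv1, a sterol transport protein, fell by 1.29 on A_52_P571938 (SE 0.09, adjusted p = 2.76e-05) and was higher by 0.44 on A_66_P105862 (SE 0.04, adjusted p = 0.00012). A probe of Capn9, a calpain protease, was lower in BTBR/R by at least 1.94-fold (adjusted p of the fitted difference 2.76e-05). Another Capn9 probe differed by 0.13 (adjusted p = 0.637). Fam89a, detected on 4 of 4 B6 and 3 of 4 BTBR/R arrays, had a fitted difference of -1.19 (adjusted p = 6.04e-05). It was lower in BTBR/R by at least 2.22-fold. For Ttc13, Arv1 and Capn9 both thresholds were thus passed by 1 probe each, while other probes of the same genes differed less or in the other direction. Sequence differences between the strains under a probe were not tested.

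Around Itpr3, Dusp1, a phosphatase gene induced by neuronal activity, was higher by 1.23 in BTBR/R mice (SE 0.26, adjusted p = 0.00808), or 2.34-fold. Gm15420 was higher by 1.27 (SE 0.05, adjusted p = 8.16e-06), or 2.41-fold.

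Background correction changed the size of several of these neighbours' differences. With normexp correction, which works on the raw signals and adds an offset of 50, Zfp933 (-2.21), Masp2 (1.96 and 1.42), Gm13152 (-1.32), Gm13154 (-1.12), Ttc13 (2.14) and Dusp1 (1.18) stayed beyond 2-fold, although the log2 differences of Ttc13, Gm13152 and the second Masp2 probe were smaller by over 1.5 times. Arv1 (-0.88), Gm15420 (0.65), Fam89a (-0.58), Capn9 (-0.57), 2610036A22Rik (-0.49) and Plod1 (-0.30) came in under 2-fold, while their adjusted p remained under 0.05. For Ttc13, Fam89a, Capn9 and 2610036A22Rik the normexp values are also smaller than the bounds above, which hold for the processed signal alone.

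**Figure D5:**
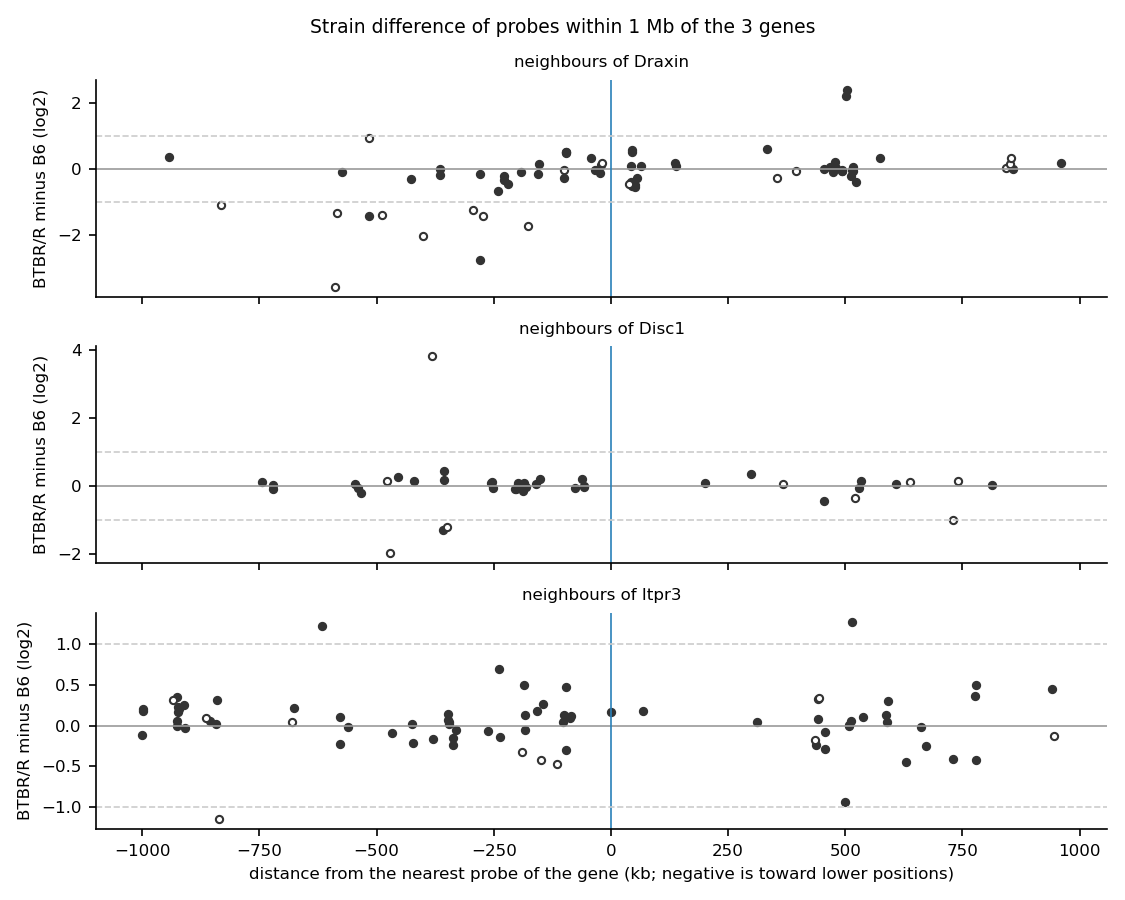
Difference in scaled signal, BTBR/R minus B6 (log2), of probes within 1 Mb of Draxin, Disc1 and Itpr3 that were detected throughout at least 1 strain, against their distance from the nearest probe of the gene (kb); filled circles were detected on all 8 arrays, open circles on fewer, and dashed lines mark 2-fold. Points beyond 2-fold lie far from Disc1 and Itpr3, and the lower ones around Draxin lie on its low-position side.

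Finally, the genes whose scaled signal varied most like each member from mouse to mouse were listed, after the strain means were taken out, over 8 arrays and 28546 other probes detected on all of them. For the Disc1 junction probe these were Wdtc1 (Pearson r = 0.986), BC060301 (r = 0.985) and Hif1an (r = 0.980), with 58 probes above 0.9. For Itpr3 they were Ubac1 (r = 0.978), Dedd (r = 0.974) and Tsn (r = 0.971), with 80 probes above 0.9. All points share the same arrays and scaling, and with so few mice such values are a description only. Draxin, undetected throughout, has no such list.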

How the data were processed

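Total RNA of 8 mice was labelled with Cy3 and hybridised to a 1-colour Agilent mouse array. The scanner files deposited by the authors hold the intensity of each spot, made with Agilent Feature Extraction 10.7.3.1 per the labels, and the deposited series table holds log2 values by the authors, which agreed to within 0.01 of a constant with log2 of the processed signal for at least 99.97% of probes. Their columns hold no comparison.

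Control spots and outlier spots (36 to 52 an array) were left out, no spot was saturated, and spots of 1 probe were averaged. The log2 processed signal minus the array's 75th percentile was fitted for 56605 probes with limma 3.58.1 (R 4.3.3), BTBR/R minus B6, without covariates, and p-values were adjusted by Benjamini-Hochberg over all probes. The fit was tested on simulated data. The threshold was an adjusted p of 0.05, with a 2-fold change for a call. The number of arrays limits the precision. Replicates are separate mice, as the numbered titles say.

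Named were all probes of the 3 genes; list genes past both thresholds and detected throughout a strain (at most 8 a list); fixed close partners; neighbours within 1 Mb past the same thresholds (at most 6 genes); and the 3 most alike genes. The genes and lists were chosen with earlier results of these data known. The sequence and position of 1 Disc1 probe are not reported here. A planned comparison between probes of 1 gene had no pair to test. The alternatives covered background, scaling, dim probes, the test, a replicate block and each mouse left out.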

Additional observations from a re-analysis of the deposited data

Results flagged for a closer look

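For the Disc1 probe A_55_P2042849, the scaled signal of BTBR/R replicate 1, the 6-month-old mouse, was -4.19, whereas the next BTBR/R mouse was at -5.33. The gap made up 0.951 of the range of the 4 mice, above the critical value of Dixon's test for 4 values. It was 1 of 10 groups of mice examined in this way, and chance alone flags about 1 in 20. The probe was not detected on that array or on any other BTBR/R array, and the part of age was not tested.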

How the results depend on the processing

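The Draxin difference (1.71) remained past the threshold in 15 of 17 alternatives but not with normexp correction (0.26) or quantile normalization (0.51); leaving out 1 mouse gave 1.41 to 1.89. The Disc1 junction probe (0.31) was past the threshold in 12 of 19 and not with normexp correction (0.22) or median scaling (0.28); leaving out 1 mouse gave 0.25 to 0.36, past the threshold in 3 of 8. Itpr3 (-0.02) turned to 0.093 with spike-in scaling, and leaving out 1 mouse gave -0.055 to 0.007. Of the dim Disc1 probes, A_55_P2042849 (0.03) turned to -0.0002 with median scaling and ranged from -0.26 to 0.14 without 1 mouse, being below 0 without B6 replicate 1 (-0.08), B6 replicate 2 (-0.02) or BTBR/R replicate 1 (-0.26). A_55_P2003038 (0.12) turned to -0.25 with normexp correction and -0.10 with quantile normalization, and ranged from -0.16 to 0.44 without 1 mouse, being below 0 without B6 replicate 2 (-0.10) or B6 replicate 4 (-0.16). Draxin and the dim Disc1 probes have no value where dim probes are left out or set to the detection limit.

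Over all probes 12697 were called, 11413 of them higher. The count was 563 (231 higher) with normexp correction, 2200 (544 higher) with quantile normalization, 1557 (362 higher) when probes had to be detected throughout 1 strain or both, 810 (289 higher) with signals floored at the highest detection limit, and 628 (298 higher) with only probes detected on all 8 arrays counted, an alternative chosen after seeing the data. Leaving out 1 mouse gave 11792 to 12929. In the main fit the netrin and Draxin list held 1 called probe, the callosal list 7, the DISC1 list 2 and the IP3 list 4. With normexp correction, with the floor and over probes detected on all 8 arrays all 4 lists held 0. Quantile normalization gave 0, 0, 1 and 0, and probes detected throughout at least 1 strain gave 0, 1, 1 and 1. With normexp correction, 0 probes of these lists passed an unadjusted p of 0.05 and 2-fold by limma either, and 14, 25, 38 and 20 passed that p alone. The cause of these changes was not tested, beyond the fewer probes counted.

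The replicate numbers did not pair the mice: deviations of same-numbered mice correlated at 0.003, -0.07, -0.04 and 0.16. With the replicate block the adjusted p was 0.0136 for Draxin, 0.0162 for the Disc1 junction probe and 0.799 for Itpr3, and 11693 probes were called.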
